A study of Mus musculus with 8 samples.

Results

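Imprinted genes are expressed from only 1 parental allele in at least some tissues, and they lie in clusters along the genome. Here 52 imprinted genes were followed, from 21 clusters on 10 chromosomes, in ribosome-bound RNA of hippocampal neurons that lack or carry the gene for CTCF. The members were chosen by the gene name printed beside each probe and were grouped by chromosome and probe position (mm9). This gave 97 of the 55681 non-control probes, which stand for 50 of the 52 genes. For 3 of these probes no position was given, and they were grouped by gene name alone. Rian and Snurf had no probe under their own name. Of the 50, 48 were tested among 29528 genes, since they had a probe that cleared the background in 4 or more of the 8 mice. Phlda2 and Slc38a4 were not well above background on any array.

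There were 8 arrays, 1 per mouse. The 4 conditional knockout (CKO) mice were Ctcf loxP/loxP, and the 4 WT mice were wild type for Ctcf. Mice of both groups were C57BL/6, carried the Camk2a-Cre transgene, which recombines in forebrain excitatory neurons, and carried the RiboTag allele, which lets Cre switch on a haemagglutinin-tagged ribosomal protein, Rpl22. Tagged ribosomes were pulled down from the hippocampus of naive, untreated adults at least 3 months old, and each group held 3 males and 1 female. The sample labels were followed for the controls, although the series' design text describes them as loxP homozygotes. Camk2a-Cre is known to recombine in neurons after birth, later than the time at which imprints are set.

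Imprinting is laid down in the germ line as DNA methylation at control regions, and each control region governs several neighbouring genes. The best known case involves CTCF itself. In the H19/Igf2 domain CTCF binds the unmethylated maternal control region and insulates the Igf2 promoters from shared enhancers, so that H19 is expressed from the maternal allele and Igf2 from the paternal one. Other clusters are governed by long noncoding RNAs such as Airn and Kcnq1ot1, which silence their neighbours on the paternal chromosome. In the brain many imprinted genes act in growth, feeding, hormone signalling and neuronal function. An array probe sums both alleles, so the data give the amount of each RNA and not its parental origin.

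Values are log2 of the spot intensity minus the 75th percentile of the same array, called normalized log2 signal, and a difference is the CKO mean minus the WT mean. Signals were ranked across probes only to choose the probe of a gene and the genes described and to set differences against signal, since probes differ in response. Ctcf, the targeted gene, had normalized log2 signals of -2.55, -2.40, -1.96 and -2.01 in CKO mice, against -1.08, -1.73, -1.45 and -1.14 in WT mice. All 4 CKO values were below all 4 WT values, with a difference of -0.88 ± 0.21 (SE) and an exact two-sided permutation p of 0.0286, the smallest that 4 against 4 mice allow. The adjusted p of limma's fit over all genes was 0.720, and the single Ctcf probe was not placed relative to the deleted part. Between 72.2% and 81.5% of probes were well above background per array. All 12 markers of excitatory neurons were detected on all 8 arrays, but so were 10 of the 12 listed markers each of astrocytes, oligodendrocytes, microglia and the choroid plexus with the ependyma. In such bulk pull-downs, fewer cells of a type and less RNA per cell cannot be told apart. The arrays lay on 3 slides: WT 1 alone on slide 1, then CKO 1, CKO 2, WT 2 and WT 3 on slide 2, and CKO 3, CKO 4 and WT 4 on slide 3.

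No imprinted gene passed the test between the genotypes. In limma's fit with Benjamini-Hochberg adjustment over all genes, 0 of 48 members passed the threshold of 0.05 in either direction, and the lowest adjusted p of a member was 0.720. Of all genes, 0% passed as higher and 0.00339%, a single transcript with no gene name, as lower. At an unadjusted p under 0.05, 1 of 48 members was higher (2.08%, against 2.35% of all genes) and 0 were lower (against 2.93% of all genes). In either direction that was 1 of 48, against 5.28% of all genes. Without overlap between the 4 CKO and the 4 WT values there was 1 member, lower in CKO mice (2.08%, against 1.37% of all genes), and 0 were higher (against 1.96%), which makes 3.33% of all genes in either direction. With so few members called, these shares lie near the background.

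The median difference of the members was -0.03, with 21 above 0 (43.8%, against 40.4% of all genes) and 27 below (56.2%, against 59.6%), while with median scaling it was 0.12, with 32 above and 16 below. Median scaling moved the median of all genes from -0.09 to 0.06, a shift of 0.15. The members' median lay 0.06 above that of all genes under both of these scalings, which move every gene alike, but relative to all genes it was -0.01 with quantile normalization, -0.02 with normexp and quantile normalization and -0.06 with the authors' deposited values. Set against genes of like signal, the members' median was -0.02, with 20 above and 28 below. Alleles were assigned as known for each gene in at least some tissues, and they were not measured in these samples. The 23 tested members listed as paternally expressed had a median of -0.03, with 10 above 0. The 17 listed as maternally expressed had a median of -0.08, with 7 above 0. The 8 not assigned to an allele, such as Gnas and Grb10, whose imprint depends on the transcript or tissue, had a median of -0.01, with 4 above 0.

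How small a change the arrays could have missed is given by the 95% intervals. The interval lay wholly between -1 and 1 for 41 of the 48 members (85.4%), against 72.7% of all genes tested. The intervals that reached past these limits were those of Igf2, Mkrn3, Sfmbt2, Ddc, Atp10a, Zim1 and Kcnq1ot1. Intervals reached a median of 0.44 to either side of the difference, and 0.32 for the narrowest. The median SD between mice of a genotype was 0.26 for the members and 0.34 for all genes. Differences also followed signal across the array: the median was -0.53 for the 2953 dimmest genes and 0.15 for the 2953 brightest, and 13 of the 48 members were among the brightest.

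**Figure D1:**
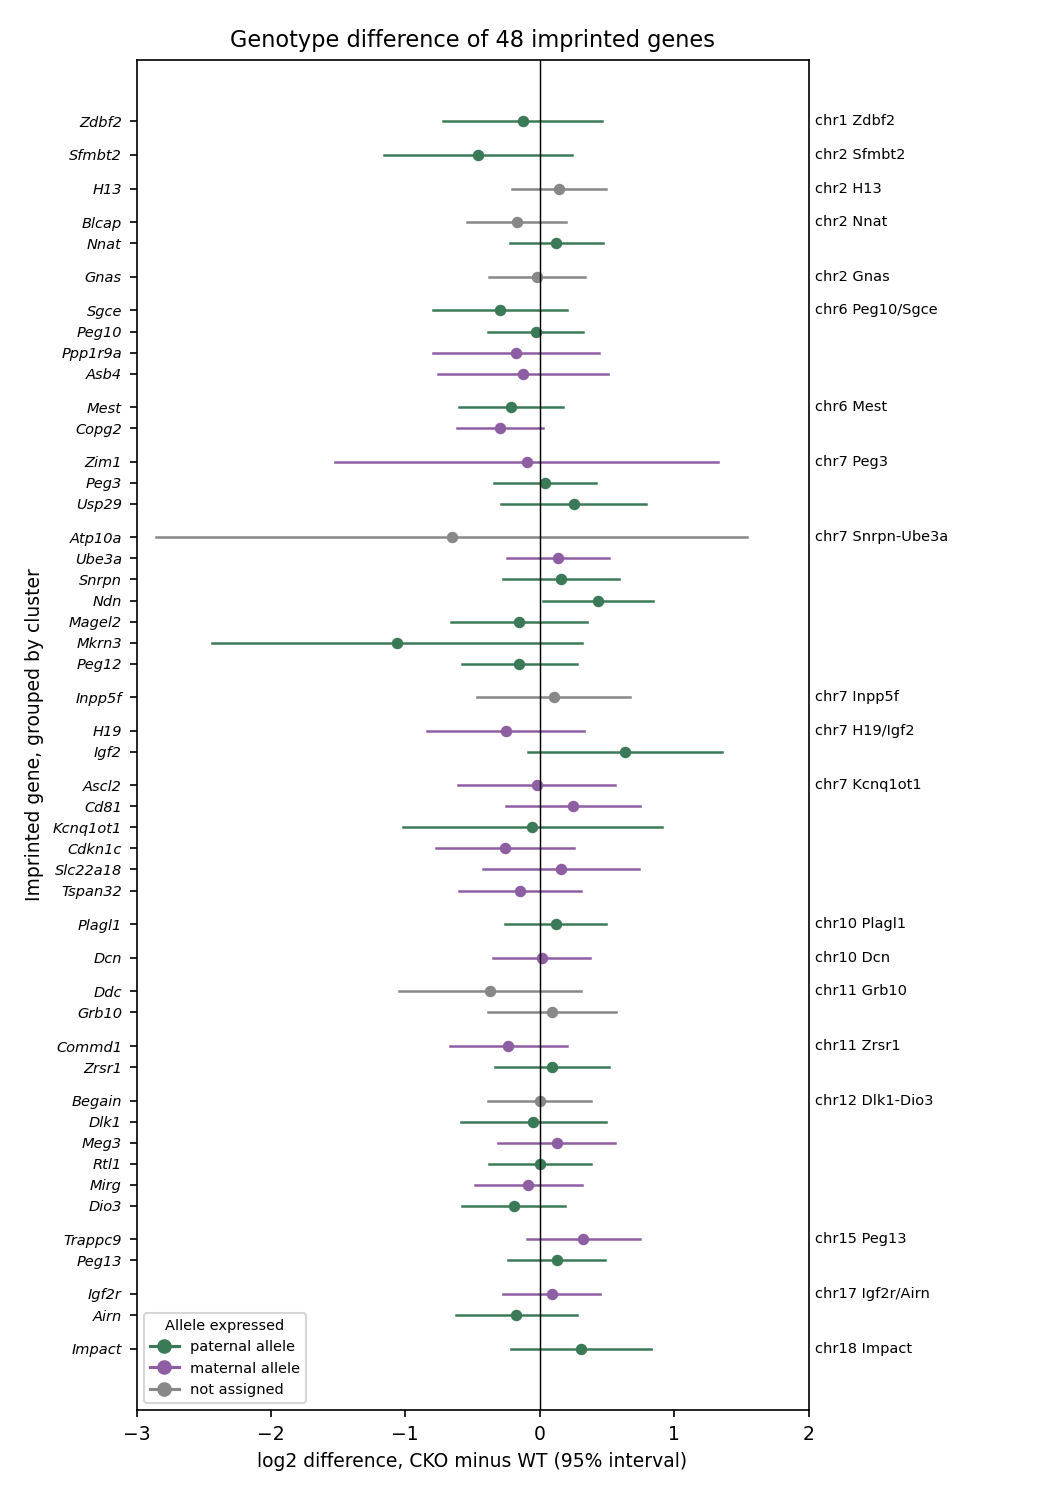
Log2 difference (CKO minus WT) of the 48 tested imprinted genes on the x axis, with its 95% interval as a line, and genes on the y axis grouped by cluster in chromosome order, with the cluster named at the right. Colour gives the allele each gene is listed as expressed from, which was not measured here. The interval of Ndn is the only one that does not include 0, and it narrowly clears it, from 0.03 to 0.84.

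The H19/Igf2 domain at the distal end of chromosome 7 is the one whose insulator CTCF occupies. Igf2, which encodes the growth factor insulin-like growth factor 2, had a probe at chr7:149839661-149839720. Its normalized log2 signals were -1.88, -1.66, -1.14 and -1.79 in CKO mice, against -1.59, -2.06, -3.10 and -2.26 in WT mice. The groups overlapped through WT 1, the array alone on its slide, and WT 3 was the lowest of all 8. The difference was 0.63 ± 0.32 (SE, n = 4 each), a fold of 1.55, with an unadjusted p of 0.078 and an adjusted p of 0.720 in limma's fit. Within slide 2 it was 0.81, and within slide 3, where WT 4 was the only WT mouse, it was 0.79. With the slide as a block it was 0.80 ± 0.29 (unadjusted p = 0.0269, adjusted p = 0.752). Without WT 3 the difference was 0.35, and among males alone it was 0.36.

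Igf2 in the adult brain is known as a product of the choroid plexus and meninges, so markers of both were set beside it. Of 12 listed markers of choroid plexus and ependyma 11 were tested, 8 of them were above 0 (against 40.4% of all genes), and their median difference was 0.36 (against -0.09 over all genes). Of these, Ttr, Kl, Sostdc1 and Enpp2, had CKO values all above the WT values, which 1.96% of all genes did. The list's mean signal lay between -0.998 and -0.45 in CKO mice, against -1.24 to -0.95 in WT mice. Of the 12 markers of meninges and fibroblasts 3 were above 0, with a median of -0.19 and a mean signal of -2.71 to -2.17 in CKO mice, against -2.33 to -1.78 in WT mice. The median difference was 0.23 for markers of astrocytes (7 of 10 above 0), 0.23 for those of microglia (9 of 11) and 0.17 for those of oligodendrocytes (9 of 11). The part of these cells in the Igf2 values was not tested.

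H19, the long noncoding RNA of the same domain, was the most densely probed member, with 7 probes inside a stretch of about a kilobase on the minus strand. Of these 6 were tested. The probes printed here were chosen because they neighbour each other and gave differences of both signs. All are 60-base probes of the deposited files, in lower case, 5′ to 3′, on mm9.
A_30_P01026972, chr7:149762173-149762232: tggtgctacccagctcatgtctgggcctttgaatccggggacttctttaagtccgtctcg
A_30_P01028827, chr7:149762113-149762172: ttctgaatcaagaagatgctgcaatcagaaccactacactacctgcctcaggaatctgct
A_30_P01028007, chr7:149761957-149762016: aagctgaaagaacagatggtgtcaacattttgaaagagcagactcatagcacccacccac

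The first 2 of these sequences abut on the genome with 0 bases between them, and their GC content is 55% and 45%. The first, A_30_P01026972, had normalized log2 signals of -3.74, -3.47, -3.24 and -3.77 in CKO mice, against -3.81, -4.33, -3.78 and -4.45 in WT mice. Every CKO value was above every WT value, though by a narrow margin, with a difference of 0.54 ± 0.22 (SE, unadjusted p = 0.037, adjusted p = 0.733 over all probes). The abutting A_30_P01028827, the probe that stands for the gene, had -0.91, -1.12, -1.83 and -1.26 in CKO mice, against -1.23, -0.78, -0.64 and -1.46 in WT mice. Here the groups overlapped and the difference had the other sign, -0.25 ± 0.26. A_30_P01028007, which begins 96 bases further downstream, gave -0.48 ± 0.18 (unadjusted p = 0.028, adjusted p = 0.733). The other 3 tested H19 probes gave between -0.46 and -0.19, so 5 of 6 were below 0. With normexp correction and quantile normalization the 3 printed probes, in the order printed, gave 0.30, -0.12 and -0.03.

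**Figure D2:**
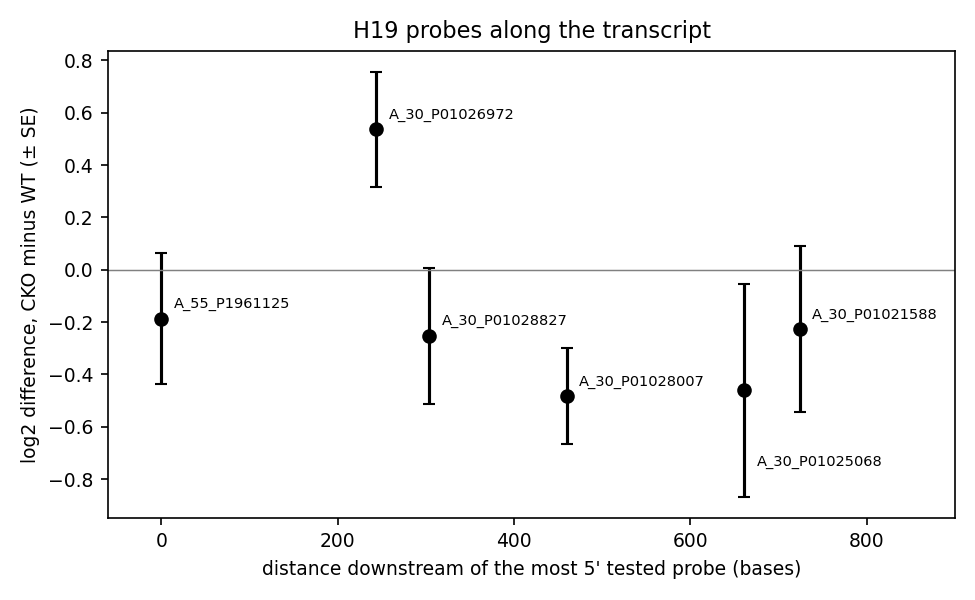
Log2 difference (CKO minus WT, ± SE, n = 4 each) of the 6 tested H19 probes on the y axis, against the distance of each probe downstream of the most 5′ tested one, in bases, on the x axis. One probe is at 0.54 and its abutting neighbour at -0.25; the others lie below 0.

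Igf2r, on chromosome 17, encodes the receptor that removes insulin-like growth factor 2, and Airn is the noncoding RNA transcribed across it from the paternal allele. Igf2r (chr17:12875409-12875467) had 0.69, 0.71, 0.82 and 0.39 in CKO mice, against 0.45, 0.57, 0.47 and 0.77 in WT mice, a difference of 0.09 ± 0.16. Airn (chr17:13008078-13008137) had 1.75, 1.83, 1.56 and 1.88 in CKO mice, against 2.29, 2.09, 1.86 and 1.48 in WT mice, a difference of -0.17 ± 0.20, which was -0.01 with the slide as a block and 0.23 within slide 3. This was the brightest Airn probe. A probe close by, at chr17:13008303-13008362, was well above background on 0 arrays of either group. The other tested Airn probes, with mean signals of -1.42 and -3.27 in CKO mice, gave 0.14 and -0.25. The groups overlapped for both genes. The labels do not say that labelling kept the strand, so a probe in a stretch shared by antisense transcripts could not tell them apart, and the probes were not placed relative to such stretches.

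The Kcnq1ot1 domain lies next to H19 on chromosome 7. Its noncoding RNA, Kcnq1ot1, is made from the paternal allele and silences neighbours such as Cdkn1c, which encodes a cyclin-dependent kinase inhibitor. Kcnq1ot1 (chr7:150440140-150440199) had -0.19, 0.20, -0.92 and -0.88 in CKO mice, against 0.56, -0.38, -0.30 and -1.45 in WT mice, a difference of -0.06 ± 0.43. These values separated by slide more than by genotype: they were highest on slide 1, lower on slide 2 and lowest on slide 3. Between slide 3 and slide 2, with genotype in the fit, the difference was -0.99 (adjusted p = 0.0218). Within slide 2 the CKO minus WT difference was 0.35 and within slide 3 it was 0.55, and with the slide as a block it was 0.43 ± 0.15 (unadjusted p = 0.0244, adjusted p = 0.752). Kcnq1ot1 was singled out after its values by slide were seen.

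The other tested genes of the domain had overlapping groups. Cd81, a tetraspanin membrane protein, had 1.63, 1.65, 2.21 and 1.84 in CKO mice, against 1.81, 1.16, 1.47 and 1.90 in WT mice, a difference of 0.25 ± 0.22. Cdkn1c gave -0.26, the transporter Slc22a18 gave 0.16, the transcription factor Ascl2 gave -0.02 and the tetraspanin Tspan32 gave -0.14. The Tspan32 value is from a probe without a mapped position. A second Tspan32 probe gave -0.63 ± 0.21, with an unadjusted p of 0.017 and overlapping groups.

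Slide differences touched other members too. Between slides 3 and 2, 5 of 48 members were lower at the adjusted threshold (10.4%, against 16.3% of all genes): Kcnq1ot1, Asb4, Zim1, Ascl2 and Tspan32. None was higher, against 4.22% of all genes. At an unadjusted p under 0.05, 13 members were lower (27.1%, against 29.6% of all genes) and 5 were higher (10.4%, against 12.2%). H19 differed by -0.61 between these slides and Cd81 by 0.47. Both females, CKO 2 and WT 3, lay on slide 2, and slide 3 held only males. The slide fit had no sex term, so slide and sex are partly mixed in it. Slide 1 held no CKO mouse, so genotype could be compared within slides 2 and 3 alone, and slide 3 held a single WT mouse.

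**Figure D3:**
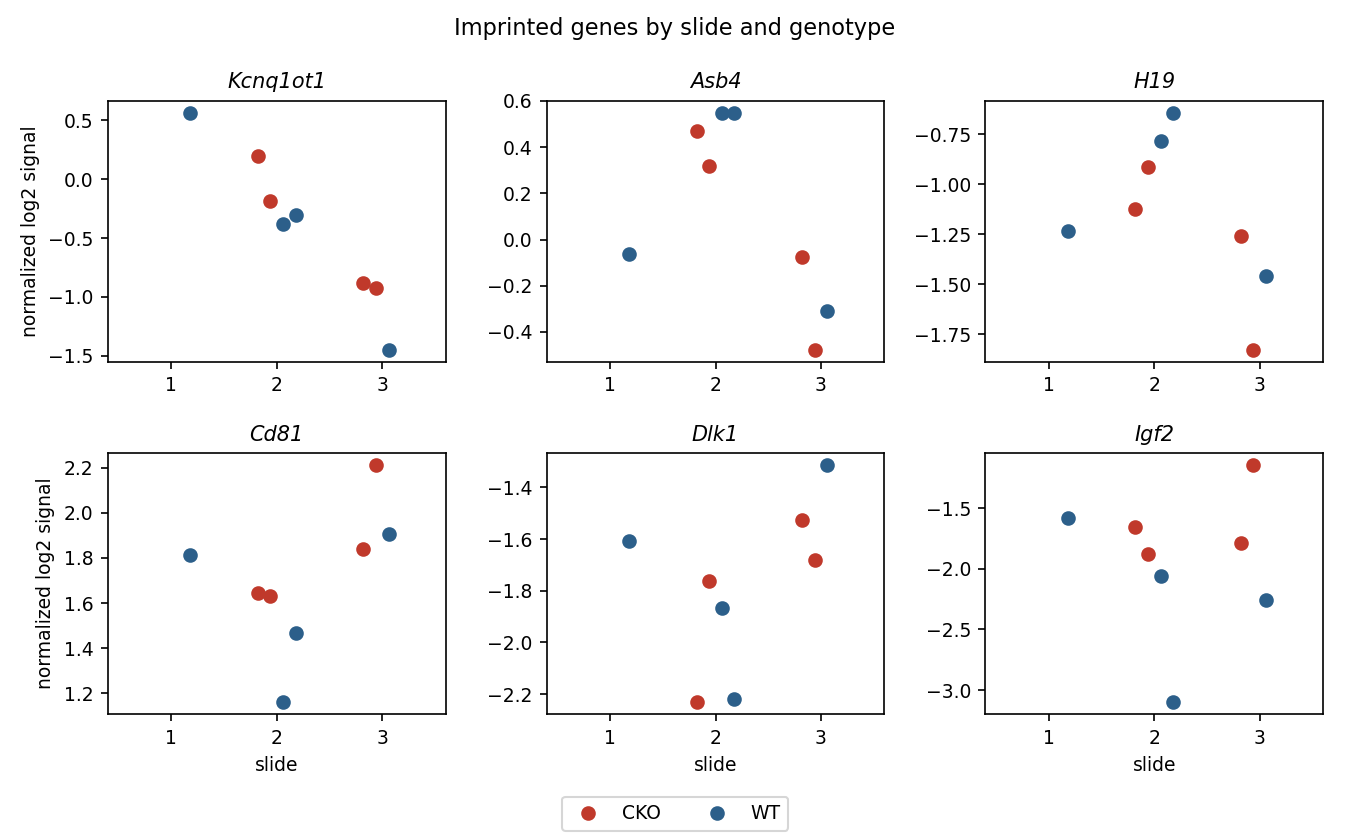
Normalized log2 signal (y axis) of Kcnq1ot1, Asb4, H19, Cd81, Dlk1 and Igf2 against slide (x axis), 1 point per mouse, with CKO mice drawn left of WT mice within each slide. Kcnq1ot1, Asb4 and H19 lie lower on slide 3 than on slide 2 and Cd81 and Dlk1 higher, while Igf2 is higher in CKO than in WT mice on both.

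The Dlk1-Dio3 cluster on chromosome 12 joins genes of both alleles around a control region near Meg3. Meg3, a maternally expressed long noncoding RNA, had 2.67, 3.28, 2.51 and 2.89 in CKO mice, against 2.65, 2.81, 2.60 and 2.78 in WT mice (chr12:110809678-110809737). Its difference was 0.13 ± 0.19, and Mirg, the noncoding host of microRNAs further along the cluster, gave -0.08. Among the paternally expressed genes, Dio3, whose deiodinase inactivates thyroid hormone, had -1.55, -1.66, -1.85 and -1.85 in CKO mice, against -1.60, -1.43, -1.29 and -1.81 in WT mice. Its difference was -0.19 ± 0.17, with overlapping groups. Dlk1, a membrane protein of the Notch ligand family, gave -0.05. Rtl1, a protein derived from a retrotransposon, gave a difference of 0.00, and so did Begain, a postsynaptic density protein at the edge of the cluster.

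The Snrpn-Ube3a cluster on chromosome 7 corresponds to the human region of Prader-Willi and Angelman syndromes. Ndn, which encodes necdin, a MAGE family protein of neurons, had 2.50, 2.34, 2.69 and 2.27 in CKO mice, against 1.69, 2.04, 2.03 and 2.29 in WT mice (chr7:69493847-69493906). CKO mice were higher apart from an overlap between CKO 4 and WT 4, both on slide 3. The difference was 0.44 ± 0.18, a fold of 1.35, with an unadjusted p of 0.0388, the smallest of any member, and an adjusted p of 0.720 in limma's fit. With the slide as a block it was 0.31 (unadjusted p = 0.0907), within slide 2 it was 0.38 and within slide 3 it was 0.19.

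Other genes of the cluster lay on both sides of 0. Magel2, another MAGE family protein, gave -0.16, and Peg12, which encodes a GSK3-binding protein, gave -0.15. Mkrn3, a RING finger ubiquitin ligase, was dim: it had -3.50, -5.62, -6.92 and -4.98 in CKO mice, where 2 of 4 arrays were well above background, against -3.88, -3.97, -4.51 and -4.41 in WT mice, where all 4 were. The CKO mice spread over a wider range than the WT mice, and the dim CKO values are not well measured. The fitted difference of -1.06 ± 0.61 was -0.44 with quantile normalization, -0.13 with normexp and quantile normalization, -0.32 within slide 2 and -0.51 without CKO 3. Snrpn, a small nuclear ribonucleoprotein, had 3.84, 3.25, 3.59 and 3.62 in CKO mice, against 3.37, 3.58, 3.08 and 3.63 in WT mice, a difference of 0.16 ± 0.19. Ube3a, the ubiquitin ligase gene of Angelman syndrome, is silenced on the paternal allele in neurons by an antisense transcript. Its probe above background on all 8 arrays gave 0.13, and the other, above background on 2 CKO and 3 WT arrays, gave -1.28 ± 0.71. Atp10a, a phospholipid flippase, was above background on 3 arrays of each group and gave -0.66 ± 0.97.

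Promoters were searched for 2 CTCF-like core motifs, since the targeted protein binds DNA at such sites. In RefSeq's promoter table (GRCm38.p6, 250 bases before to 50 after each start) 43 of the 52 members were found, with 68 promoters. Imprinting control regions outside these windows were not searched. The stricter motif, of 14 letters, was searched on both strands and matched 0.0365% of all promoters and no member's. The looser, of 13 letters, matched 0.813% of all promoters and 1 member promoter, that of Peg12. Its 250 bases before the start, chr7:62464511-62464760 on the minus strand, are shown 5′ to 3′ with the match, which is to the motif's reverse complement, in capitals.
Peg12: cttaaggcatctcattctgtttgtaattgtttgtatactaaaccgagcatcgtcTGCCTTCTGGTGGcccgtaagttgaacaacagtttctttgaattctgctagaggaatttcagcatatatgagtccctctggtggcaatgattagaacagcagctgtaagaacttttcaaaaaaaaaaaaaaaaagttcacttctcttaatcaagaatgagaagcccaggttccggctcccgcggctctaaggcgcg

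The match is a description of letters, 196 to 184 bases before the start. Peg12 itself had -0.77, -0.81, -1.14 and -0.92 in CKO mice, against -0.85, -0.44, -0.62 and -1.12 in WT mice. The groups overlapped, with a difference of -0.15 ± 0.19.

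The Peg10/Sgce cluster on chromosome 6 has 4 tested members. Sgce, epsilon-sarcoglycan, is mutated in human myoclonus dystonia and had 3.08, 2.88, 2.44 and 2.42 in CKO mice, against 2.63, 3.34, 3.03 and 3.00 in WT mice. Its difference was -0.30 ± 0.22. Ppp1r9a, which encodes the dendritic spine protein neurabin, had 3.86, 3.81, 3.83 and 4.01 in CKO mice, against 4.93, 3.81, 3.74 and 3.75 in WT mice. WT 1 was far above the other 7 mice. The difference was -0.18 ± 0.27, and without WT 1 or with the slide as a block it was 0.11. The second Ppp1r9a probe, also highest in WT 1, gave -0.49 ± 0.39. Peg10, a retrotransposon-derived protein, gave -0.03 and Asb4, an ankyrin repeat protein of ubiquitin ligases, gave -0.12.

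Further along chromosome 6, Mest and Copg2 overlap tail to tail. Copg2, a subunit of the coatomer that coats transport vesicles, had 0.91, 0.85, 0.91 and 1.17 in CKO mice, against 1.23, 1.24, 1.34 and 1.21 in WT mice (chr6:30698828-30698887). It is the one member gene whose groups did not overlap, with all CKO values below all WT values. The difference was -0.30 ± 0.14, a fold of 0.815, with an unadjusted p of 0.0685 and an adjusted p of 0.720. It was -0.41 within slide 2 and -0.17 within slide 3, and the second Copg2 probe gave -0.01. Mest, a protein of the alpha/beta hydrolase fold, had -0.74, -0.67, -0.36 and -0.35 in CKO mice, against -0.23, -0.42, -0.52 and -0.11 in WT mice, a difference of -0.21 ± 0.17. This Mest probe lies close to that of Copg2 on the opposite strand, where the transcripts may overlap.

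**Figure D4:**
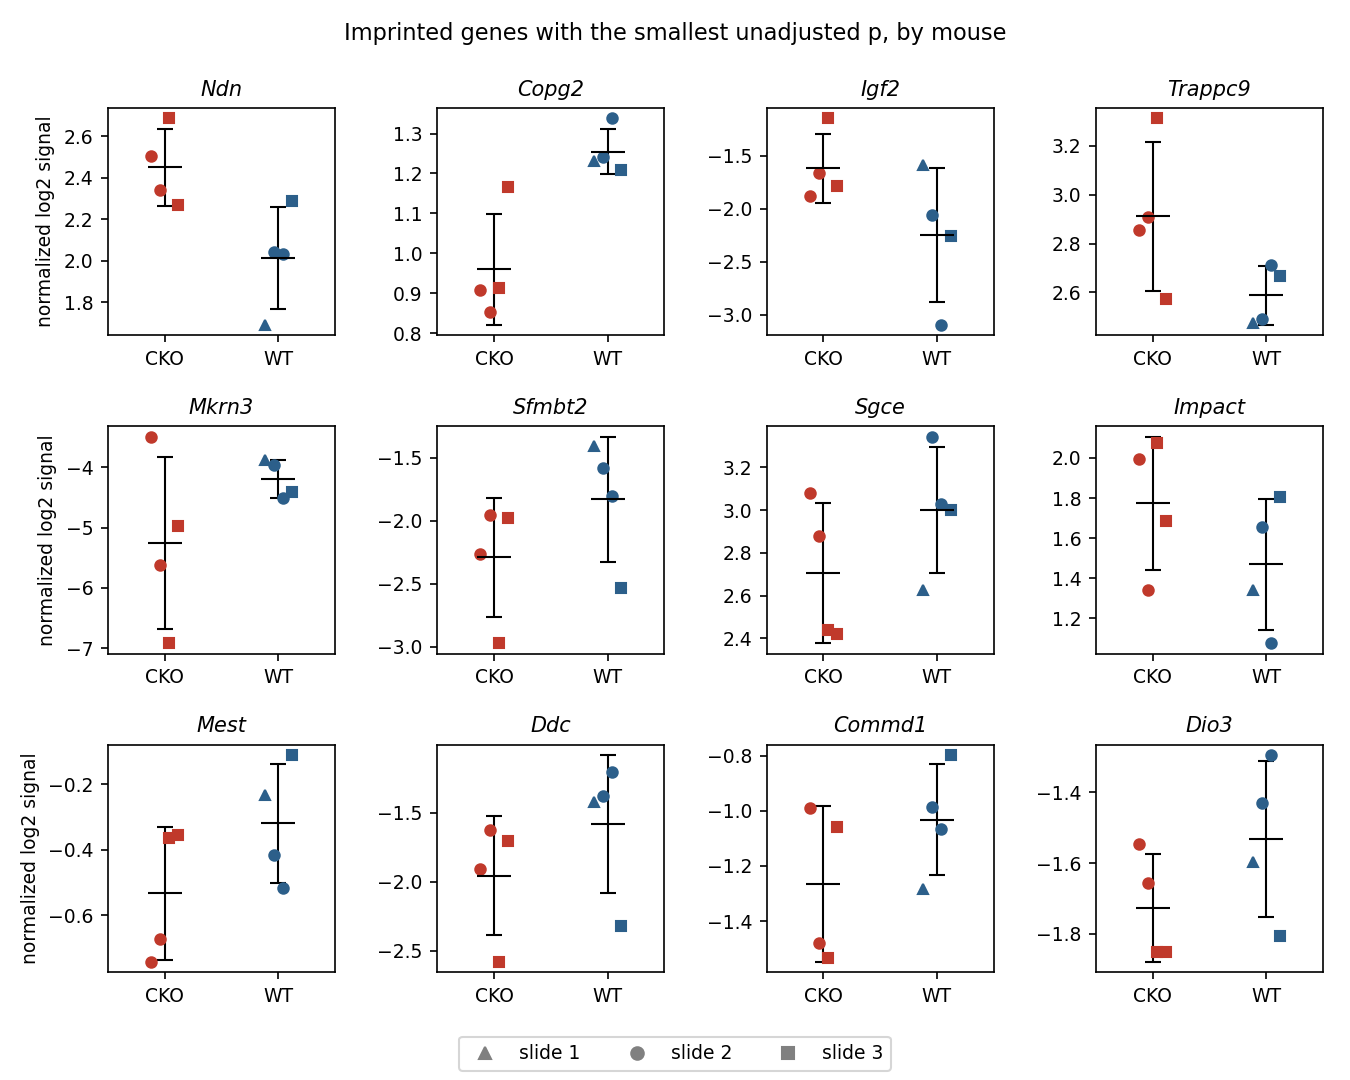
Normalized log2 signal (y axis, a separate scale in each panel) of the 12 imprinted genes with the smallest unadjusted p, by genotype (x axis), 1 point per mouse, with the mean and SD in black and the slide as marker shape. Copg2 is the only panel without overlap between CKO and WT mice.

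The Peg3 cluster lies on proximal chromosome 7. Peg3, a zinc finger protein gene known for its part in maternal behaviour, had 2.80, 2.48, 2.79 and 2.94 in CKO mice, against 2.97, 2.63, 2.64 and 2.61 in WT mice, a difference of 0.04 ± 0.17. Usp29, a ubiquitin peptidase, gave 0.25 ± 0.24. Zim1, a zinc finger protein expressed from the maternal allele, was above background on 3 arrays of each group and gave -0.10 ± 0.63.

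Chromosome 2 holds 4 small clusters. Gnas, the stimulatory G protein alpha subunit, had 4.15, 4.00, 3.99 and 4.20 in CKO mice, against 4.03, 4.08, 3.93 and 4.39 in WT mice, a difference of -0.02 ± 0.16. Blcap had 3.55, 3.62, 3.81 and 4.01 in CKO mice, against 4.08, 3.84, 3.79 and 3.96 in WT mice, a difference of -0.17 ± 0.16. Nnat, a small membrane proteolipid whose gene lies in an intron of Blcap, gave 0.12. H13, the signal peptide peptidase, had 3.58, 3.38, 3.57 and 3.21 in CKO mice, against 3.13, 3.35, 3.29 and 3.39 in WT mice, a difference of 0.15 ± 0.15. Its 4 probes ranged from -0.12 to 0.51, and the highest, A_52_P655663, had an unadjusted p of 0.028 and overlapping groups. Sfmbt2, a Polycomb protein, had -2.26, -1.95, -2.97 and -1.98 in CKO mice, against -1.41, -1.58, -1.80 and -2.54 in WT mice, a difference of -0.46 ± 0.31 with WT 4 inside the CKO range. It was -0.23 with the slide as a block and 0.06 within slide 3.

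On chromosome 11, Ddc, the decarboxylase of dopamine and serotonin synthesis, had -1.91, -1.62, -2.58 and -1.71 in CKO mice, against -1.42, -1.38, -1.21 and -2.32 in WT mice. Its difference was -0.37 ± 0.30, and again WT 4 lay inside the CKO range. With the slide as a block it was -0.21 and within slide 3 it was 0.18. Its neighbour Grb10, an adaptor of the insulin receptor expressed from the paternal allele in neurons, had -0.40, -0.95, -0.74 and -0.28 in CKO mice, against -0.33, -0.69, -0.95 and -0.78 in WT mice, a difference of 0.09 ± 0.21. Commd1 is a gene with the paternally expressed Zrsr1 inside an intron. It had -0.99, -1.48, -1.53 and -1.06 in CKO mice, against -1.28, -0.99, -1.06 and -0.80 in WT mice, a difference of -0.23 ± 0.19. Zrsr1, a splicing factor gene of retrotransposed origin, had -0.56, -0.92, -0.26 and -0.66 in CKO mice, against -0.76, -0.66, -0.90 and -0.45 in WT mice, a difference of 0.09 ± 0.19.

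The Peg13 cluster on chromosome 15 has 2 tested members. Trappc9, a subunit of a vesicle tethering complex, had 2.85, 2.91, 3.31 and 2.57 in CKO mice, against 2.48, 2.49, 2.71 and 2.67 in WT mice. Its difference was 0.32 ± 0.19, with CKO 4 inside the WT range, and its second probe gave -0.01. Peg13, a noncoding RNA within an intron of Trappc9, had 3.69, 3.48, 3.71 and 3.28 in CKO mice, against 3.25, 3.50, 3.41 and 3.49 in WT mice, a difference of 0.13 ± 0.16.

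The remaining clusters have 1 tested member each. Plagl1, a zinc finger transcription factor that acts on other imprinted genes, had 4.46, 4.65, 4.58 and 4.67 in CKO mice, against 4.21, 4.77, 4.53 and 4.38 in WT mice, a difference of 0.12 ± 0.17. The other tested Plagl1 probes gave -0.28, -0.06 and -0.06. Impact, a regulator of the kinase GCN2 that is abundant in neurons, had 1.99, 1.34, 2.07 and 1.69 in CKO mice, against 1.34, 1.66, 1.08 and 1.81 in WT mice, a difference of 0.30 ± 0.23. Its second probe gave 0.42 ± 0.22, with overlapping groups. Inpp5f, an inositol phosphatase, had -0.26, -0.66, -0.14 and -0.55 in CKO mice, against -0.45, -0.24, -1.18 and -0.16 in WT mice, a difference of 0.10 ± 0.25. A second Inpp5f probe, for another transcript record, gave 0.32 ± 0.19, also with overlapping groups. The proteoglycan gene Dcn had 2.92, 2.76, 3.08 and 2.67 in CKO mice, against 2.65, 2.79, 2.95 and 2.98 in WT mice, a difference of 0.02 ± 0.16. Zdbf2, a zinc finger protein gene, had -2.65, -2.35, -1.97 and -2.86 in CKO mice, against -2.86, -2.42, -2.06 and -1.98 in WT mice, a difference of -0.13 ± 0.26. That probe has no mapped position. The mapped Zdbf2 probe, chr1:63356404-63356463, was well above background on 0 arrays of either group. The groups overlapped for all 5.

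The test was also made probe by probe. Of the 84 tested member probes 0 passed the threshold after adjustment over 44314 probes, as did 0% of all probes. At an unadjusted p under 0.05 there were 5 (5.95%, against 5.36% of all probes), of which 3 were higher (3.57%, against 2.02%) and 2 were lower (2.38%, against 3.34%). Groups did not overlap for 2 probes (2.38%, against 3.32%), with 1 higher (1.19%, against 1.71%) and 1 lower (1.19%, against 1.61%). Above 0 were 34 probes (40.5%, against 38.2%), and below 0 were 50 (59.5%, against 61.8%). Of the 23 members with more than 1 tested probe, 10 had probes of a single sign and 13 had probes of both signs. The range between probes was under 0.5 for 20 of them, and it was widest for Ube3a, H19 and H13.

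Other imprinted genes and the proteins that maintain imprints were set beside the members. Of 43 further imprinted genes 35 were tested, with 23 above 0 (against 40.4% of all genes) and a median of 0.10 (against -0.09). Unlike the members, they were not set against genes of like signal, and differences followed signal across the array. None passed the adjusted threshold, and 3 had an unadjusted p under 0.05, as did 5.28% of all genes. Calcr, the calcitonin receptor gene, was not well above background on any CKO array and was on all 4 WT arrays. It thus entered the test through the WT arrays alone. Set against the background bound, CKO mice were at least 1.43-fold lower, with an adjusted p of 0.483 in limma's fit over all genes. The AMP deaminase gene Ampd3, dim in both groups, gave -1.66 ± 0.53 (unadjusted p = 0.0121). Osbpl5, an oxysterol-binding protein gene beside the Kcnq1ot1 domain, gave 0.45 ± 0.16 with CKO values all above WT values (unadjusted p = 0.022). Among 27 listed imprint regulators 25 were tested, with a median of 0.01. Ctcf, the targeted gene, and the cohesin subunit Stag1 (0.48 ± 0.20) had an unadjusted p under 0.05, which is 2 of 25, against 5.28% of all genes. The DNA methyltransferases Dnmt1 (0.20 ± 0.18) and Dnmt3a (0.31 ± 0.25) and the imprint-protecting zinc finger protein Zfp57 (0.00 ± 0.20) did not.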

How the data were processed

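RNA from haemagglutinin pull-downs underwent whole transcriptome amplification and Cy5 labelling, per the labels' protocols, before hybridisation to 1-colour Agilent arrays. The deposited scanner files give spot intensity from Agilent Feature Extraction (version 11.5, per the submitters' processing notes), background-subtracted per the file headers, with probe coordinates on mm9. A further table by the authors holds linear intensity per spot, whose normalization is not given in the sources used here; its ranks followed the processed signal. No spot was saturated. Array number and signal over background limit the precision. Input RNA was not used here.

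Outlier-flagged spots were dropped, spots of a probe averaged, and log2 of the processed signal taken minus each array's 75th percentile. A probe was tested when 4 or more of the 8 arrays showed it well above background, and the probe with the highest mean stood for its gene. Symbols came from RefSeq accessions, matched for 28324 probes, or else from the files. The genotype test was limma's moderated one (version 3.58.1, R 4.3.3; two-sided, lmFit then eBayes), its p-values were adjusted over all genes (Benjamini-Hochberg), and it was tested on simulated data. Groups, replicate numbers and sex came from the labels. The named genes were Ctcf, the member with the highest mean signal in each cluster, the 12 members with the smallest unadjusted p, and other imprinted genes at an unadjusted p under 0.05. Igf2r, Kcnq1ot1 and Peg12 were added after their values were seen, as were the regulators and cell markers named singly. A bound on a fold sets the bright group's mean against, per array, the higher of the dim probe's signal and the lowest signal well above background. The members and lists were chosen with earlier results of these data known. Alternatives were other scalings, background correction, filters and probe rules, slide, sex and replicate terms, slides 2 and 3 alone, males only, another prior variance and leaving out each array.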

Additional observations from a re-analysis of the deposited data

Results flagged for a closer look

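In 2 cases a value stood apart from the other 3 mice of its group by Dixon's test, among 60 groups of 4 tested, where chance alone marks about 1 in 20. Ppp1r9a was at 4.93 in WT replicate 1, against 3.74 to 3.81 in the other WT mice. Peg3 was at 2.97 in WT replicate 1, against 2.61 to 2.64 in the other WT mice. Both belong to the array that is alone on slide 1.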

How the results depend on the processing

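No imprinted gene or probe passed the threshold in any of the 23 alternatives for genes or 22 for probes. Members at an unadjusted p under 0.05 numbered 0 to 4 over these, and 12 of the 29 named members kept their sign in every alternative run for them (22 for Mkrn3). The sex, replicate and prior variance settings cannot change a gene's difference in this balanced design, so they do not bear on its sign. Mkrn3 ranged from -1.65 to -0.13, Igf2 from 0.35 to 0.93, Ndn from 0.19 to 0.58 and Copg2 from -0.41 to -0.15. The members' median was 0.12 with median scaling and between -0.06 and 0.02 in the others, leaving out each mouse giving -0.06 to -0.00042. Ctcf was at -0.57 with normexp and quantile normalization, against -0.88, and at -1.004 to -0.77 with each mouse left out. Over all genes the count past the threshold was 1. It was 0 with quantile normalization, with or without a slide block, with the authors' deposited values, within slide 2, among males and with the replicate block. It was 2 with no filter on dim probes, 3 with sex as a covariate, 4 with normexp and quantile normalization, and 5 with only probes above background on all 8 arrays or with a trended prior variance. Leaving out each mouse gave 0 to 2: 0 without CKO 2, CKO 3, WT 2, WT 3 or WT 4, and 2 without CKO 4. The causes were not tested. The joint setting of quantile normalization and a slide block was chosen after seeing the data. The labels number mice 1 to 4 in both groups, and deviations of same-numbered mice correlated at -0.32, 0.39, -0.42 and 0.07. Mice numbered 1 and 3 lay on different slides and those numbered 2 and 4 on the same slide. Slide and number are thus mixed in these correlations, which cannot show whether the numbers pair mice. With the replicate block 0 members passed. The members' median stayed at -0.03, as it had to, since each number occurs once in each group.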
